A study of Mus musculus with 13 samples.

Results

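Cytosolic ribosomal protein genes code for the proteins of the small (40S) and large (60S) subunits of the ribosome. Members were all genes of the deposited table whose symbol was Rpl or Rps followed by a digit, Rplp0 to Rplp2 or Rpsa. The Rps6k kinases and symbols containing -ps were left out. This gave 79 gene rows with 77 different symbols among 11761 rows: 30 of the 40S subunit, 41 of the 60S subunit, 3 of the P stalk, and 5 copies or other symbols that the rule caught. The 60S rows include Rpl32l and Rpl37rt, which are copies by their names. Of the 77 genes of the textbook set that the rule can find, 70 were among these rows. The symbols Rpl18, Rpl26, Rpl27, Rpl28, Rpl31, Rps23 and Rps27a were not analysed here.

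The RNA came from epididymal white adipose tissue of Adipoq-NuTRAP mice on the C57BL/6J background. Both groups carried these alleles and were fed for 10 weeks, 1 group on standard chow (6.4% fat by weight) and the other on a high-fat diet (HFD), with 3 RNA libraries per diet. Age was not given in the sources used here, and the HFD was not described further. In NuTRAP mice, Cre recombinase turns on a green fluorescent protein fused to the ribosomal protein L10a, and here Cre was driven by Adipoq, an adipocyte gene, so that ribosomes with their mRNA can be pulled out of a whole-fat homogenate with an antibody against the fluorescent protein (translating ribosome affinity purification, TRAP). The 7 chromatin samples (3 chow and 2 HFD for H3K27ac, and 1 of each diet for PPARG) were not analysed here. The labels do not say that replicates were separate animals, and the p-values therefore describe only the spread among these libraries, possibly a technical one.

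A ribosome holds 1 copy of nearly every ribosomal protein, and cells make these proteins in balance with each other and with ribosomal RNA. Most of their mRNAs begin with a run of pyrimidines, the 5′ terminal oligopyrimidine (TOP) tract, through which the kinase complex mTORC1 and the RNA-binding protein LARP1 set how many ribosomes these mRNAs carry. TRAP recovers mRNA on tagged ribosomes, so a value here combines how much of an mRNA the adipocytes held and how much of it was on ribosomes, which cannot be told apart. In such bulk samples fewer cells of a type and less RNA per cell cannot be told apart either.

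The unit is CPM, read counts scaled to the effective library size. That size was 23200000, 32500000 and 7430000 reads in chow 1, 2 and 3 and 33700000, 32000000 and 39400000 reads in HFD 1, 2 and 3. Chow 3 was thus the shallowest library, and its Rn45s, a transcript of ribosomal RNA, was the highest at 23170 CPM, with 4068 to 12503 CPM in the other 5 libraries. Even there the members had 10 to 2765 reads each, with a median of 214. The 15 adipocyte markers tested were all present, with 1 called higher (Lep, 2.17 log2) and 8 called lower, a median of -0.56 log2 and a range from -3.07 to 2.17. They summed to 24223 to 37140 CPM on chow and 21569 to 24300 CPM on HFD. Adipoq itself, 1 of those called lower (-0.60 log2), ran from 1978 to 2740 CPM on chow and from 1305 to 1585 CPM on HFD. Several marker lists of other cells of fat differed with diet: the 14 macrophage markers summed to 82.6 to 106 CPM on chow and 331 to 519 CPM on HFD (12 called higher, 1 lower). The 10 endothelial markers summed to 27.2 to 79.4 and 145 to 277 CPM (9 higher, 0 lower), and the 8 smooth muscle or pericyte markers to 101 to 137 and 663 to 993 CPM (8 higher, 0 lower). The 10 fibroblast or progenitor markers overlapped between diets, at 2419 to 3809 and 2046 to 3846 CPM (2 higher, 1 lower). Of 7 mesothelial markers 2 were called higher and 0 lower, at 19.2 to 30.8 and 41.8 to 137 CPM. The part of these cells and of the adipocyte markers in the ribosomal protein values was not tested.

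Few ribosomal protein genes were called different between the diets, and with all 6 libraries at the authors' scaling no fitted difference reached 1 log2 in either direction. Under HFD 1 member, Rpl5, was called higher and 6 were called lower: Rplp2, Rpl10a, Rpl22, Rps4x, Rps19 and Rpl3 (limma, Benjamini-Hochberg adjusted p under 0.05 over 11643 genes). These 7 were 8.86% of the 79 members, where 35.1% of all tested genes were called. Over all tested genes 19.1% were called higher and 16.0% lower. Differences, HFD minus chow on the log2(CPM + 1) scale, ran from -0.82 to 0.62 among members with a median of -0.17, while the median over all genes was -0.00, and 24 of 79 members lay above 0. Of the 79 members, 68 differed by less than 0.5 in either direction, a larger share than the 62.0% of all genes. An unadjusted p under 0.05 was reached by 20 members. The sign of the differences depended on the scaling. With libraries scaled to equal medians of the adipocyte markers, 24 members were called higher and 0 lower, 30.4% against 51.0% of all genes. The members' median was then 0.34 and that of all genes 0.53. The markers had a median of -0.56 log2 at the authors' scaling, so setting them equal raises the differences of other genes by construction. Calls lost or gained with it show only how a result depends on the scaling chosen. The members' median minus that of all genes was -0.19 with this scaling and -0.17 at the authors' scaling. The counts also depended on single libraries. Leaving out chow 1 gave 15 lower, and leaving out chow 3, HFD 1, HFD 2 or HFD 3 gave 3, 1, 3 and 0 lower. In these fits 20.3%, 6.33%, 2.53%, 3.80% and 0% of members were called in either direction. Of all genes 32.2%, 32.5%, 28.2%, 25.9% and 24.5% were called, so fewer genes passed in general with a library less. The count of higher members became 2 without chow 3, and 0 without HFD 2 or without HFD 3.

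**Figure D1:**
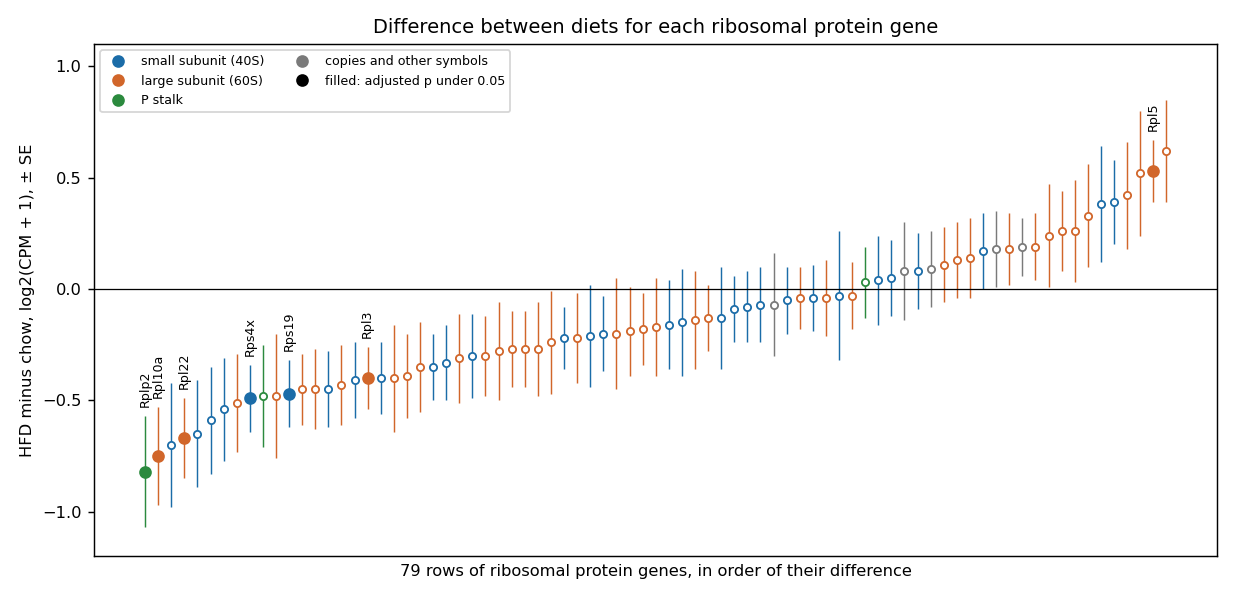
Difference between HFD and chow for each of the 79 gene rows on the log2(CPM + 1) scale (vertical axis, point with its standard error), in order of the difference, with 3 libraries per diet. Filled points passed the adjusted p threshold: 6 below 0 and Rpl5 above it. With libraries scaled to equal medians of adipocyte markers the counts became 0 lower and 24 higher (30.4%, against 51.0% of all genes).

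The values of the called members show how much of each difference lay between diets. Rplp2, a P-stalk protein that helps bring elongation factors to the ribosome, had 108, 114 and 226 CPM in chow 1, 2 and 3 and 76.6, 82.1 and 78.2 CPM in HFD 1, 2 and 3. All HFD libraries were below all chow libraries, chow 3 stood far above the other chow libraries, and the difference was -0.82 log2 (SE 0.25, limma adjusted p = 0.0292). Without chow 3 the Rplp2 difference was -0.48 log2, still called, while the call was lost on leaving out any HFD library, without the trend, and with adipocyte-marker scaling (-0.27 log2). Rpl22, a 60S protein that cells can live without and that represses its paralog Rpl22l1, had 141, 136 and 220 CPM on chow and 96.3, 109 and 97.7 CPM on HFD. Again the diets did not overlap, with chow 3 the highest (-0.67 log2, SE 0.18, limma adjusted p = 0.0188). Without chow 3 the Rpl22 difference was -0.45 log2, still called, and the call was lost without HFD 1, without HFD 3 and with adipocyte-marker scaling (-0.12 log2). Rpl3, a 60S protein that reaches towards the peptidyl transferase centre, had a tight set of values, 39.1, 36.5 and 34.3 CPM on chow against 29.2, 28.8 and 24.4 CPM on HFD, and here chow 3 was the lowest chow library. Its difference of -0.40 log2 (SE 0.14) was just under the threshold (limma adjusted p = 0.0485), and the call was lost in 11 of 18 alternatives. Of the 6 fits that left out a library, the Rpl3 call was kept only in the fit without chow 3 (-0.45 log2).

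On the small subunit the called members were Rps4x, an X-linked 40S protein, and Rps19, whose human gene is often mutated in Diamond-Blackfan anaemia. Rps4x had 64.9, 80.4 and 80.4 CPM on chow and 50.9, 61.4 and 47.5 CPM on HFD. Rps19 had 77.2, 81.0 and 104 CPM on chow and 56.1, 69.6 and 61.8 CPM on HFD. Neither gene overlapped between diets, and the differences were -0.49 log2 (SE 0.15) and -0.47 log2 (SE 0.15), with limma adjusted p of 0.0291 and 0.0375. With adipocyte-marker scaling these became 0.06 and 0.08 log2, Rpl3 became 0.14, and none of the 3 was called. The calls of Rps4x and Rps19 were also lost with equal CPM totals and on leaving out chow 2, chow 3, HFD 1 or HFD 3, that of Rps19 also without the trend.

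Rpl10a codes for the protein whose tagged form the pulldown uses. It had 48.8, 61.8 and 89.3 CPM on chow and 44.0, 39.9 and 30.9 CPM on HFD (-0.75 log2, SE 0.22, limma adjusted p = 0.0261), with no overlap. The transgene carries coding sequence for the same protein, so reads of the endogenous gene and of the transgene cannot be told apart in this row. The call was lost without chow 3 (-0.52 log2), without HFD 2, without HFD 3 and with adipocyte-marker scaling (-0.20 log2). The part of the transgene in the Rpl10a value was not tested.

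Rpl5 was the called member that went the other way. With Rpl11 and 5S ribosomal RNA it forms a particle that joins the 60S subunit and, when free, binds the p53 regulator Mdm2. Rpl5 had 48.8, 57.7 and 48.8 CPM on chow and 64.4, 81.6 and 79.9 CPM on HFD (0.53 log2, SE 0.14, limma adjusted p = 0.0180). All HFD libraries were above all chow libraries, and the call was lost without HFD 2 (adjusted p = 0.0698) and without HFD 3 (0.0800). Its partner Rpl11, named after its values were seen, had 16.8 ± 2.64 CPM on chow and 13.7 ± 1.25 CPM on HFD (SD, n = 3), with overlap (-0.27 log2, SE 0.17, limma adjusted p = 0.254). Rpl5 was thus higher and Rpl11 not called under the same fit, and the difference between these genes was not tested.

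**Figure D2:**
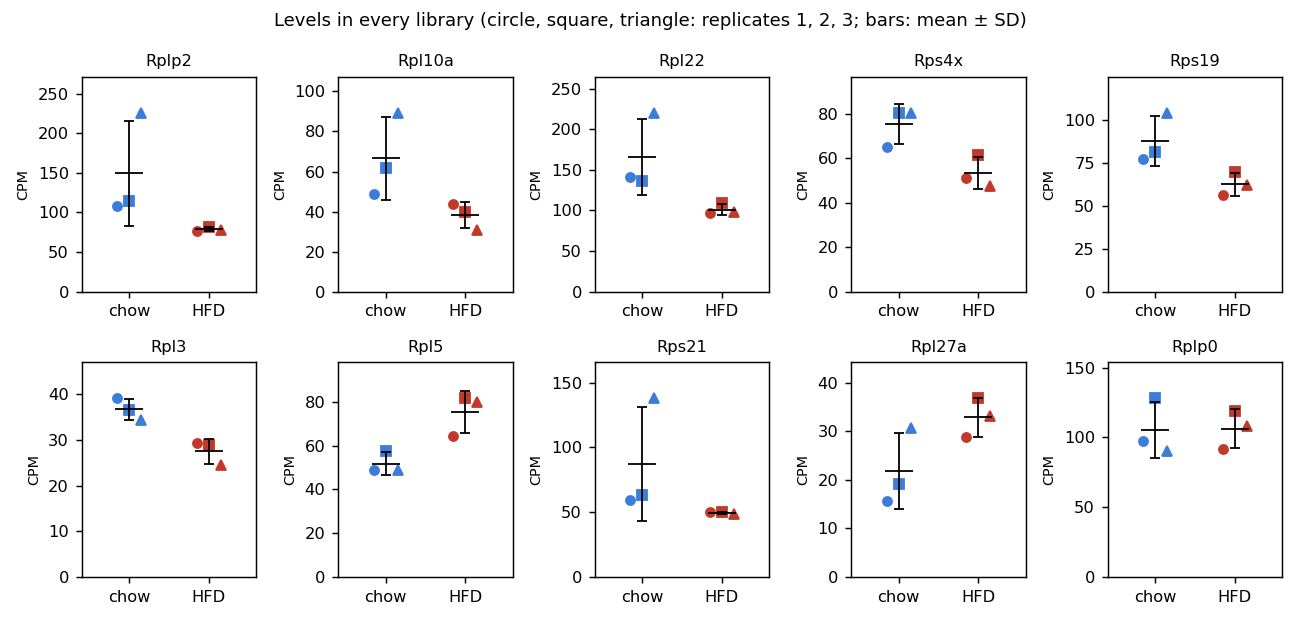
CPM in each library for the 7 called genes and for Rps21, Rpl27a and Rplp0 (vertical axes start at 0; circle, square and triangle are replicates 1, 2 and 3; bars are mean ± SD, n = 3). In Rplp2, Rps21 and Rpl22 the triangle of chow 3 stands above the other chow points, while Rpl5 has all HFD points above chow and Rplp0 has the diets mixed.

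Promoter sequences of the called genes are shown because the TOP tract starts at the first base of the mRNA, so that pyrimidine runs near an annotated start can be seen. Whether a run is the first part of the mRNA in fat cannot be read from them. RefSeq promoter windows on GRCm38.p6, which is the same assembly as mm10, covered 57 of the 77 symbols, and Rpl3 was not among them. Each line gives 30 bases before and 30 from the start that the RefSeq promoter table gives, 5′ to 3′ on the gene's strand, with runs of at least 8 letters made only of C and T that reach within 20 bases of the start in capitals. Rps6, the substrate of the S6 kinases downstream of mTORC1, is added for comparison.
Rplp2: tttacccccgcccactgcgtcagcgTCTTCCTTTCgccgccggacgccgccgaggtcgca
Rpl10a: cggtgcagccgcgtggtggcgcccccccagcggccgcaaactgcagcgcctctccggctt
Rpl22: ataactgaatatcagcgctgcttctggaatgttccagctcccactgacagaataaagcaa
Rps4x: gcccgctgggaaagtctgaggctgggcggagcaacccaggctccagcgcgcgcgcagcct
Rps19: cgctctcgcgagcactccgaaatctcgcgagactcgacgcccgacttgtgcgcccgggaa
Rpl5: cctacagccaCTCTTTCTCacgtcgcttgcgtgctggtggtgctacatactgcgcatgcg
Rps6: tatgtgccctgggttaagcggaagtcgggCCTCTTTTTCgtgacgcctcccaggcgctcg

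For Rpl5 that start, 107900528, lies downstream of the start of the gene's RefSeq span, 107900508, which is the first base of its tract; for the other 6 the starts are the same. The windows lie at chr7:141447621-141447680 (Rplp2, plus strand), chr17:28328441-28328500 (Rpl10a, plus), chr4:152324406-152324465 (Rpl22, plus), chrX:102189362-102189421 (Rps4x, minus), chr7:24884562-24884621 (Rps19, plus), chr5:107900498-107900557 (Rpl5, plus) and chr4:86857338-86857397 (Rps6, minus). Rplp2, which was lower under HFD, and Rpl5, which was higher, hold a run near the start, and so does Rps6, which was not called; the directions of Rplp2 and Rpl5 were the same under every alternative run. Over the members with a window, 27 of 57 (47.4%) held such a tract, against 20.8% of 27025 genes in the promoter table. The 7 letters CCGGAAG, which hold the core that ETS factors such as GABPA bind, were found on either strand within the 300-base window of 22 of 57 members (38.6%) and of 9.11% of all genes. On the opposite strand this motif reads CTTCCGG, whose first letters CTTCC can be shared with a tract. Among members on a single row, the 26 with a tract had a median difference of -0.11 log2 (2 called) and the 30 without had -0.29 (4 called), each as scaled by the authors. Of all tested genes 35.1% were called. A match is a description of letters, and annotated starts can differ from those used in fat.

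The 30 rows of the 40S subunit had a median difference of -0.18 log2, with 0 called higher and 2 lower, and 6 of them lay above 0. In 10 of them (33.3%) all HFD libraries were below all chow libraries, as in 25.0% of all genes, and the 2 called lower compare with 16.0% of all genes. Rps21, which had the lowest difference of the 40S rows, had 59.7, 63.6 and 138 CPM on chow and 49.9, 49.9 and 48.5 CPM on HFD, so the diets did not overlap and the chow spread came from chow 3 (-0.70 log2, SE 0.28, limma adjusted p = 0.0768). Without chow 3 the Rps21 difference was -0.31 log2. Rps6 had 24.3 ± 1.86 CPM on chow and 23.3 ± 4.53 CPM on HFD (SD, n = 3), and the HFD libraries spanned the chow ones (-0.07 log2, SE 0.17, 95% interval -0.45 to 0.31). Rpsa, a 40S protein also known as the laminin receptor precursor, differed by -0.30 log2 (SE 0.19) and overlapped. Rps3, which sits at the mRNA entry channel and drew the most reads of the 40S rows, had 234, 280 and 372 CPM on chow and 223, 252 and 217 CPM on HFD (-0.33 log2, SE 0.17, limma adjusted p = 0.163).

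The 41 rows of the 60S subunit had a median difference of -0.19 log2, with 1 called higher and 3 lower, and 13 above 0. The called share was 9.76%, against 35.1% of all genes. Rpl27a had the highest difference of all members. It had 15.7, 19.2 and 30.7 CPM on chow and 28.8, 36.8 and 33.1 CPM on HFD, so that chow 3 fell among the HFD libraries (0.62 log2, SE 0.23, limma adjusted p = 0.0637). Without chow 3 Rpl27a was called (0.88 log2), as it was with adipocyte-marker scaling (1.16 log2). Rpl4, the 60S row with the most reads, had 249, 302 and 315 CPM on chow and 256, 311 and 272 CPM on HFD, which overlapped fully (-0.04 log2, SE 0.14, 95% interval -0.36 to 0.27). Rpl8 had 197, 236 and 294 CPM on chow and 165, 197 and 162 CPM on HFD (-0.45 log2, SE 0.16, limma adjusted p = 0.0561), with HFD 2 at the level of chow 1. Rpl39, a small protein lining the exit tunnel, differed by -0.13 log2 (SE 0.15). Rpl17 was among the rows with the fewest reads, at 2.33 to 2.62 CPM on chow and 2.85 to 3.32 CPM on HFD. Its libraries did not overlap, yet its difference was 0.24 log2 (SE 0.23), and 19 reads in chow 3 limit it.

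In the P stalk, Rplp0 is the base that carries dimers of Rplp1 and Rplp2. Rplp0 had 97.7, 128 and 89.9 CPM on chow and 91.8, 119 and 108 CPM on HFD, so the diets were mixed (0.03 log2, SE 0.16, 95% interval -0.34 to 0.39). Rplp1 had 86.8, 134 and 174 CPM on chow and 75.1, 99.7 and 99.0 CPM on HFD (-0.48 log2, SE 0.23, limma adjusted p = 0.141), with HFD 2 and HFD 3 above chow 1. Rplp1 and Rplp2 thus shared the high value in chow 3 and Rplp0 did not. The stalk has 3 rows, of which 1 was called.

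The 5 copies and other symbols had differences from -0.07 to 0.19 log2, a median of 0.09, and none was called. Rpl22l1, the copy that Rpl22 represses, had 18.6, 21.9 and 24.8 CPM on chow and 21.4, 28.2 and 24.4 CPM on HFD (0.18 log2, SE 0.17, limma adjusted p = 0.446), beside the lower Rpl22. Rps27l, a p53-inducible copy of Rps27, differed by 0.08 log2 (SE 0.22), Rpl7l1 by 0.19 (SE 0.13), Rps4l by -0.07 (SE 0.23) and Rps19bp1, which binds Rps19 and is no ribosomal protein, by 0.09 (SE 0.17). Rpl32l, also a copy by its name but counted with the 60S rows, had 1.95, 2.97 and 1.36 CPM on chow and 2.83, 3.94 and 3.25 CPM on HFD (0.52 log2, SE 0.28, limma adjusted p = 0.176), from 10 reads in chow 3.

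A pair of symbols stood on 2 rows each. The Rpl29 rows had differences of 0.42 log2 (SE 0.24) and 0.26 (SE 0.23), at 2.43 to 5.39 and 4.11 to 7.57 CPM over the 6 libraries, and the Rps27 rows -0.15 (SE 0.24) and -0.03 (SE 0.29). None of the 4 was called. Ribosomal protein genes have many processed copies in the genome, and how reads matching several places were counted is not given in the sources used here, so all members' values are uncertain to that extent.

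Of the 72 members that were not called, 64 had a 95% interval of the difference within -1 to 1 log2. The intervals of the 79 members together reached from -1.38 to 1.14 log2, and their standard errors ran from 0.13 to 0.29, with a median of 0.18 as over all genes. In 21 members (26.6%) the libraries of the diets did not overlap, against 50.2% of all tested genes; in 18 of these (22.8% of members, against 25.0% of all genes) HFD was below chow, and in 3 above (3.80% against 25.2%), namely Rpl5, Rpl17 and a row of Rpl29.

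The members varied together from library to library, within diets as well as between them. Relative to its own mean over the 6 libraries, the median member stood at -0.14, 0.08 and 0.33 log2 in chow 1, 2 and 3 and at -0.15, 0.05 and -0.11 log2 in HFD 1, 2 and 3. The median of all tested genes stayed between -0.02 and -0.00. Thus 72 of 79 members were higher in chow 2 than in chow 1, where 49.5% of all genes were. In the same way 69 of 79 were higher in HFD 2 than in HFD 1, where 48.8% of all genes were. Compared with HFD 3, 71 of 79 were higher in HFD 2, where 49.8% of all genes were. Chow 3 was the highest library for 48 members and HFD 2 for 21. These counts compare single libraries of 1 diet, and members of a library share its preparation, so they are not tests.

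**Figure D3:**
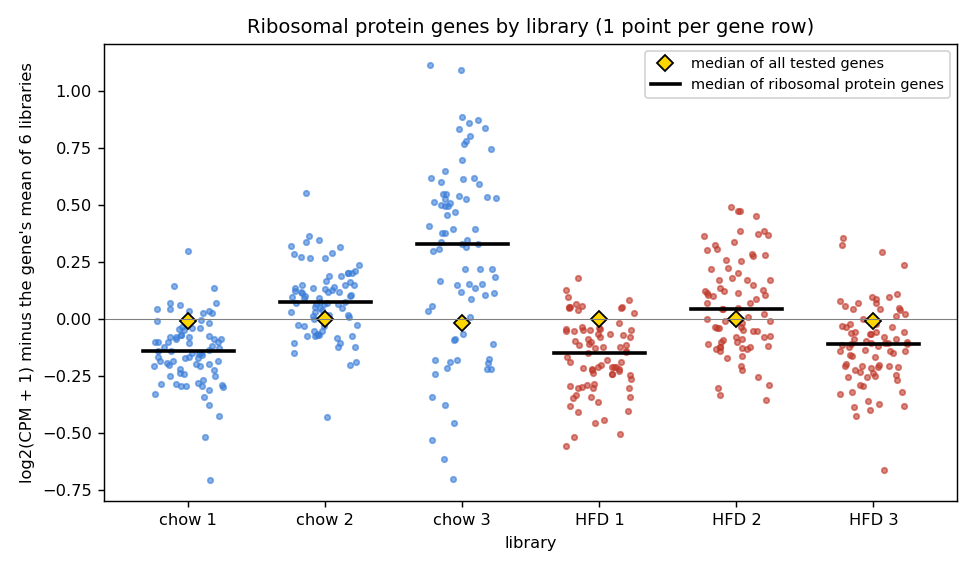
Deviation of each member from its own 6-library mean in log2(CPM + 1), 1 point per gene row and library, with the median of the members (line) and of all tested genes (diamond). The members' median is highest in chow 3, at 0.33, and differs between libraries of the same diet, while the diamonds stay near 0.

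Chow 3 also spread the members apart. Its value minus the mean of chow 1 and chow 2 ran from -0.77 log2 for Rps16 to 1.15 for Rps21, with a median of 0.35. In chow 3, 53 members were above both other chow libraries and 12 below both, where the shares of all genes were 38.8% and 39.3%. The SD over 3 libraries had a median of 0.29 log2 in chow and 0.14 in HFD among members, and 0.22 and 0.16 over all genes. It was larger in chow for 62 of 79 members and for 62.1% of all genes. Without chow 3 the members' median difference between diets was -0.06 log2 and that of all genes -0.01. The lower depth and higher Rn45s of this library stand beside these values, and their part was not tested. Of the 7 called genes, Rpl5, Rplp2, Rpl22 and Rpl3 were also called without chow 3, at 0.49, -0.48, -0.45 and -0.45 log2, and Rpl10a (adjusted p = 0.0632), Rps4x (0.0655) and Rps19 (0.0756) were not.

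The summed level of the 79 members was 3449, 4086 and 5053 CPM on chow and 3241, 3845 and 3342 CPM on HFD. As a share of all CPM listed in a library, this was 0.335%, 0.404% and 0.427% in chow, a mean of 0.389% ± 0.0482 (SD, n = 3), and 0.325%, 0.391% and 0.335% in HFD, a mean of 0.350% ± 0.0352 (SD, n = 3). The shares overlapped between diets. The summed CPM of 60S rows over that of 40S rows was 1.12, 1.13 and 1.15 in chow and 1.15, 1.18 and 1.17 in HFD. CPM are not divided by length, so the ratio says nothing of the balance between subunits within a library. Between libraries it varied far less than the sums themselves.

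**Figure D4:**
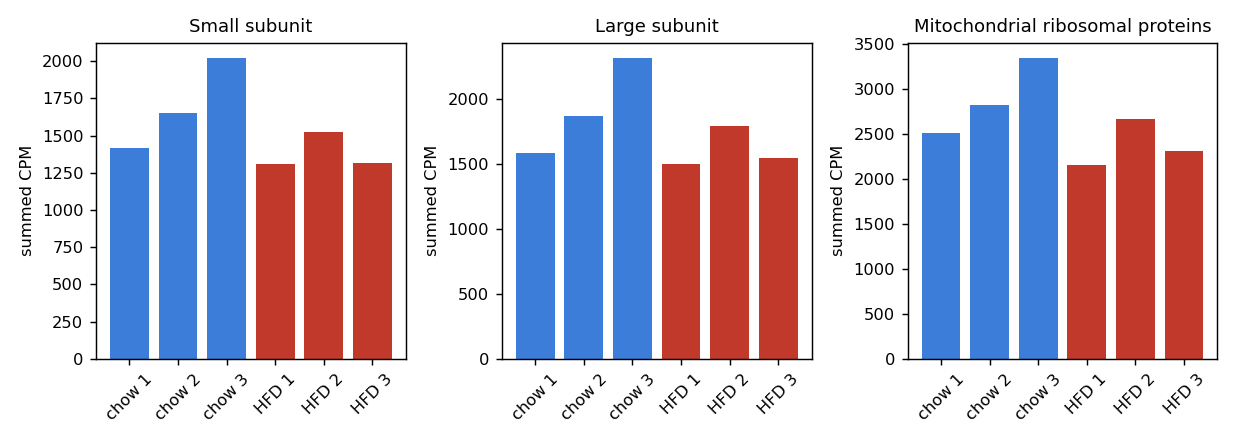
Summed CPM of the 40S rows, the 60S rows and the mitochondrial ribosomal protein genes in each library (bars from 0, chow blue, HFD red; each panel has its own vertical scale). In all 3 panels chow 3 is the highest library and HFD 1 the lowest.

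The genes of mitochondrial ribosomal proteins, which build the separate ribosome inside mitochondria, were the closest comparison. Among 66 tested, 0 were called higher and 16 lower (24.2%), with a median of -0.22 log2. Of all tested genes 19.1% were called higher and 16.0% lower. Their summed level followed the same order of libraries, at 2511, 2824 and 3351 CPM on chow and 2153, 2674 and 2310 CPM on HFD. Leaving out HFD 1 or HFD 3 gave 8 and 6 lower, and leaving out chow 2 gave 2 higher and 11 lower. Equal CPM totals gave 9 lower, and adipocyte-marker scaling gave 14 higher and 0 lower. Whether the called share differs between mitochondrial and cytosolic ribosomal proteins was not tested.

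Ribosomal proteins outside the symbol rule include Fau, made as a fusion with a ubiquitin-like part, and Rack1, a scaffold on the 40S head. Neither was called. Rack1 had 184, 232 and 215 CPM on chow and 204, 239 and 197 CPM on HFD, which overlapped (0.02 log2, SE 0.14), and Fau differed by -0.13 log2 (SE 0.20).

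Among 16 elongation factors and other classic TOP mRNAs, 0 were called higher and 3 lower, with a median of -0.16 log2. The called share was 18.8%, all lower, where 16.0% of all genes were called lower and 19.1% higher. Eef2, which moves the ribosome along the mRNA, had 1060, 1168 and 1060 CPM on chow and 803, 798 and 729 CPM on HFD (-0.50 log2, SE 0.13, limma adjusted p = 0.0154), without overlap and with chow 3 level with chow 1. Eif4b, a helper of the helicase that opens 5′ leaders, fell by 0.58 log2 (SE 0.14, limma adjusted p = 0.0104), and Eif3f, a subunit of the 40S-binding factor eIF3, by 0.48 (SE 0.13, limma adjusted p = 0.0191). With adipocyte-marker scaling none of these 3 was called (0.06, -0.02 and 0.07 log2) and 5 others of the list were called higher. Leaving out chow 2 or HFD 3 left 1 lower, and leaving out HFD 1 left 2. Eef1a1, which delivers aminoacyl-tRNA, differed by -0.31 log2 (SE 0.14, limma adjusted p = 0.109), and Tpt1, a textbook TOP mRNA, by -0.09 (SE 0.19).

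The initiation factor list held all tested symbols of Eif followed by a digit, so it also takes in genes such as the repressor Eif4ebp2. Of these 52 genes, 5 were called higher and 5 lower (19.2%, against 35.1% of all genes), with a median of 0.00 log2. Eif4b and Eif3f, given above, and Eif4ebp2, given below, are among the 5 lower and are counted in 2 lists each. Without HFD 2 these counts were 1 and 4, without HFD 3 they were 2 and 3, without chow 3 they were 2 and 5, without HFD 1 they were 5 and 3, and adipocyte-marker scaling gave 27 and 0.

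Ribosome assembly factors, which fold, trim and export the subunits, had 5 called higher and 5 lower of 67 tested (14.9%, against 35.1% of all genes). Their median was -0.01 log2, and their differences were wider than those of the ribosomal proteins, from -1.48 to 0.75 log2. Rrs1, which places the 5S particle in the 60S precursor, had 49.5, 48.2 and 82.1 CPM on chow and 21.0, 20.5 and 19.3 CPM on HFD (-1.48 log2, SE 0.20, limma adjusted p = 0.000631). Dkc1, the pseudouridine synthase of H/ACA particles, had 65.8, 65.8 and 88.0 CPM on chow and 27.1, 29.2 and 25.8 CPM on HFD (-1.37 log2, SE 0.15, limma adjusted p = 0.000191). Imp3, a protein of the small-subunit processome, fell by 1.23 log2 (SE 0.23, limma adjusted p = 0.00311). These 3 were lower under every alternative run. In the other direction Rrp12, a factor for export of both subunits, had 19.3, 17.3 and 18.3 CPM on chow and 31.6, 29.2 and 33.1 CPM on HFD (0.75 log2, SE 0.14, limma adjusted p = 0.00315). Pno1 and Wdr12 were higher by 0.58 and 0.55 log2 (limma adjusted p = 0.0433 and 0.0207), calls that were lost on leaving out chow 1, HFD 2 or HFD 3, for Pno1 also chow 3 and for Wdr12 also chow 2. The list's counts of higher and lower became 34 and 3 with adipocyte-marker scaling, 3 and 5 without chow 1, 1 and 4 without HFD 2, and 2 and 4 without HFD 3.

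For RNA polymerase I, which transcribes ribosomal RNA, 1 gene was called higher and 2 lower of 13 (23.1%, against 35.1% of all genes). Rrn3, the initiation factor that recruits the polymerase, differed by 0.40 log2 (SE 0.13, limma adjusted p = 0.0457), Ubtf, which opens the ribosomal DNA promoter, by -0.48 (SE 0.12, limma adjusted p = 0.0129), and Znrd1, a polymerase subunit, by -0.63 (SE 0.20, limma adjusted p = 0.0348). Without HFD 2 or HFD 3 none of the 13 was called, without chow 1 there were 0 higher and 2 lower, and without chow 2, chow 3 or HFD 1 there was 1 of each. The Rrn3 call was lost without chow 1, chow 3, HFD 2 or HFD 3, with voom weights and without the trend. The gene called higher without chow 3 was thus not Rrn3. The Znrd1 call was lost without chow 2, chow 3 or any HFD library, and with equal CPM totals. Equal CPM totals gave 2 higher and 1 lower. With adipocyte-marker scaling 5 were higher and 0 lower, and Ubtf was at 0.07 log2.

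Of 23 genes of mTORC1, LARP1 and S6 kinase control, 4 were called higher and 2 lower (26.1%, against 35.1% of all genes), with a median of 0.08 log2. Of those that were higher, Deptor and Ddit4 inhibit mTORC1. The list holds further inhibitors, such as Tsc1 and Tsc2, which are not reported here, so no statement on inhibitors as a group is made. Deptor had 315, 375 and 407 CPM on chow and 588, 704 and 820 CPM on HFD (0.94 log2, SE 0.16, limma adjusted p = 0.00211), with no overlap. Ddit4, which restrains mTORC1 under stress, was higher by 0.87 log2 (SE 0.24, limma adjusted p = 0.0194), a call lost without chow 3, HFD 1 or HFD 3. Rps6ka1, a kinase of the ERK pathway that phosphorylates Rps6, was higher by 1.29 log2 (SE 0.29, limma adjusted p = 0.00796) at 1.62 to 3.27 CPM on chow and 6.02 to 10.9 CPM on HFD. Eif4ebp2, a translation repressor, fell by 0.75 log2 (SE 0.18, limma adjusted p = 0.0105), and Eef2k, which inhibits Eef2, by 0.59 (SE 0.16, limma adjusted p = 0.0175); with adipocyte-marker scaling these were -0.20 and -0.03 and were not called. Mtor and Larp1 each differed by 0.16 log2 (SE 0.16 and 0.12) and overlapped between diets. Leaving out chow 3, HFD 1 or HFD 3 gave 2 higher and 2 lower, leaving out HFD 2 gave 3 and 1, and adipocyte-marker scaling gave 13 and 0.

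**Figure D5:**
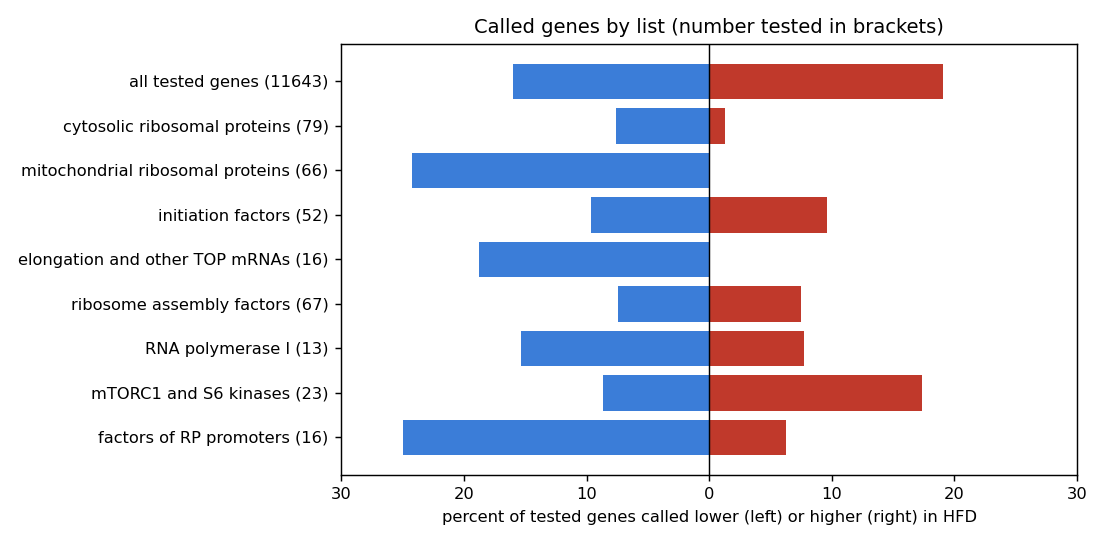
Percent of tested genes of each list called lower (blue, left) or higher (red, right) under HFD, with the number tested in brackets, at the authors' scaling. The cytosolic ribosomal protein bars (6 lower and 1 higher of 79) are shorter than those of all 11643 tested genes. Lists can share genes: initiation factors are all symbols of Eif followed by a digit, and Eif4b, Eif3f and Eif4ebp2 also stand in other lists. With adipocyte-marker scaling the counts became 0 lower and 24 higher, 30.4% against 51.0% of all genes.

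Among 16 transcription factors tied to ribosomal protein promoters, 1 was called higher and 4 lower (31.2%, against 35.1% of all genes), with a median of -0.27 log2. Mycl, a member of the Myc family, had 53.4, 88.6 and 154 CPM on chow and 3.03, 3.05 and 3.25 CPM on HFD (-4.47 log2, SE 0.32, limma adjusted p = 1.92e-05). The chow libraries of Mycl were in the same order as the members' median and those of Myc in the reverse order. In HFD the Mycl values were nearly equal and did not follow the members' median. A link of either gene to the members was not tested. Myc itself had 8.28, 6.06 and 5.82 CPM on chow and 3.61, 2.07 and 2.95 CPM on HFD (95% interval of the log2 difference -1.55 to -0.45, limma adjusted p = 0.0120). Sp3 fell by 0.70 log2 (SE 0.14, limma adjusted p = 0.00411), and E2f1 was higher by 0.97 (SE 0.23, limma adjusted p = 0.00987). Without chow 1 the counts were 2 higher and 5 lower. With adipocyte-marker scaling 3 were higher and 1 lower, and Myc and Sp3 were not called (-0.55 and -0.14 log2).

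Many ribosomal protein genes carry small nucleolar RNA (snoRNA) genes in their introns, which guide the modification of ribosomal RNA. Of 75 members matched to a RefSeq gene, 30 hold an annotated snoRNA gene within the gene's span, where introns and strand were not checked. These 30 had a median difference of -0.15 log2 with 1 called higher and 2 lower, and the other 45 a median of -0.22 with 0 higher and 4 lower. The called shares were 10.0% and 8.89%, against 35.1% of all genes. The 7 tested snoRNA host genes that code for no protein and begin with a TOP tract had a median of 0.07 log2 and none was called; 1 was called higher without chow 1 or without chow 3, 2 with equal CPM totals and 3 with adipocyte-marker scaling.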

How the data were processed

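Per the labels' protocols, RNA from the pulldown was depleted of ribosomal RNA, turned into libraries by tagmentation, which keeps no strand, and read on a HiSeq2500. The submitters' processing notes list HISAT2, Picard, featureCounts and edgeR for build mm10; settings and the handling of reads matching several places were not given in the sources used here. Values deposited by the authors are log2 CPM for each gene row. This scale was read from the values: as CPM they sum to 984422 to 1182123 per library and fall on steps of whole reads (100% of the low values used, under 20 reads, within 0.1 of a read, in each library). The steps gave the effective library sizes. A level of 3 reads is 0.404 CPM in chow 3 and 0.0762 to 0.129 CPM in the others, which covers counting error only.

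Values were turned back to CPM, and log2(CPM + 1) was fitted with limma 3.58.1 (two-sided, eBayes with a trend of variance on mean level; R 4.3.3) for the 11643 genes whose mean was at least 1 CPM. All 79 members passed this filter. Benjamini-Hochberg adjustment covered all these genes, with a threshold of 0.05. A difference on this scale understates the change of low genes. No count test was run, since the unit is a log value. The code was tested on simulated data. Columns were matched to samples by diet and replicate number, and those numbers were not treated as pairs.

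The members, the other gene lists and the markers were chosen with earlier results of these data known. Of the members not on the list of copies, the rule for named genes took the 5 highest and 5 lowest differences and the 3 with the most and the fewest CPM. It added the listed copies, a fixed set of members, and from each other list the 3 called genes with the largest change in each direction. The remaining called members, Rpl11 and Rps16 were named after their values were seen. A few genes that this rule names are not reported here. Transcript lengths were not used here, so levels are not compared between genes. Promoters, gene matches and snoRNA positions are from RefSeq on GRCm38.p6. Alternatives were a replicate block, other pseudocounts, filters and scalings, voom weights on recovered reads, no trend, and leaving out each library.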

Additional observations from a re-analysis of the deposited data

How the results depend on the processing

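The counts of called members were the least stable values. At the authors' scaling 1 member was called higher and 6 lower. With libraries scaled to equal CPM totals, with or without the ribosomal protein genes in the total, the counts were 2 and 3. This was 6.33% of members, against 33.0% of all genes, and the median of all genes moved to 0.10 log2. With equal medians of the adipocyte markers they were 24 and 0 (30.4%, against 51.0% of all genes), the members' median was 0.34 and that of all genes 0.53. Voom weights gave 2 higher, with 10.1% of members and 33.0% of all genes called. Without a trend eBayes gave 3 lower, with 5.06% and 33.2% called, and the cause was not tested. Leaving out a library in turn gave 0 to 2 higher and 0 to 15 lower, while 24.5% to 32.5% of all genes were called. In the 19 fits the members' median minus that of all genes ran from -0.29 (without chow 1) to -0.05 (without chow 3). Of all called genes 54.4% were higher, against 65.4% with equal totals and 94.0% with adipocyte-marker scaling.

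Deviations of same-numbered libraries correlated at 0.43, 0.23 and 0.09 across genes for replicates 1, 2 and 3. All are above 0, and libraries with different numbers were not compared in this way. These values therefore cannot decide whether the numbers mark pairs or batches, and the main fit left the numbers out. With the replicate block 3 members were called higher and 16 lower, and 4839 genes in all against 4084. These were 24.1% of members and 41.6% of all genes. The members called in the main fit were also called with the block. Among other members described above, Rpl27a was called higher with it, and Rps21, Rplp1 and Rpl8 lower.

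For the 29 named members, 417 of 517 values under alternatives kept direction and side of the threshold, 37 lost the call, 23 gained it and 40 changed sign. Sign changes under adipocyte-marker scaling were Rps19 0.08, Rps4x 0.06, Rpl3 0.14, Rps4l 0.47, the Rps27 rows 0.37 and 0.31, Rpl8 0.10, Rps3 0.23, Rpl4 0.52, Rps6 0.47, Rplp1 0.08, Rpsa 0.25 and Rpl39 0.40 log2. With equal totals they were Rps4l 0.04, an Rps27 row 0.04, Rpl4 0.07 and Rps6 0.03, and with voom weights Rps4l 0.07. Quantile normalization gave Rpl29 -0.11, Rpl32l -0.12, Rps19bp1 -0.03, Rpl17 -0.38 and Rpl4 0.08. Leaving out a library gave -0.25 to 0.19 for Rps4l, -0.16 to 0.34 for Rps27l, -0.03 to 0.16 for Rps19bp1, -0.23 to 0.24 for Rps27 (uc033jnn.1), -0.15 to 0.02 for Rpl4, -0.29 to 0.06 for Rps27 (uc008qbl.2), -0.22 to 0.02 for Rps6, -0.08 to 0.17 for Rplp0 (log2).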

Other observations

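The 30 members with a snoRNA gene within their RefSeq span include Rpl3 and Rpl5, with 3 such genes each, which were called in opposite directions at the authors' scaling. With adipocyte-marker scaling the difference of Rpl3 was 0.14 log2 and it was not called.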
